A study of Homo sapiens with 12 samples.

Results

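The 8 genes described here are HMGCS1, INSIG1, SQLE, IDI1, FDFT1, LSS, SREBF1 and SREBF2, which make sterols or control their making. They were taken by name, and each was read from probe sets (groups of short oligonucleotides on the array) that the annotation ties to 1 gene symbol only. Of the 8 genes, 7 had such a probe set, 21 probe sets in all, and all 7 were among the 16110 genes tested, of 19775 genes with a probe set of 1 symbol. FDFT1 (squalene synthase) was not analysed here. For each gene the probe set with the highest mean over the 12 arrays carries the values, and its other probe sets are given as a check.

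BxPC-3, a line the series calls primary, and AsPC-1, a line isolated from ascites that the series calls metastatic, are human pancreatic cancer cell lines. Both were kept overnight in 2.5% serum, and were then left untreated or given 1 µM phorbol-12-myristate 13-acetate (PMA) in DMSO for 4 h. What the untreated cells were given in place of PMA is not stated in the sources used here. The 4 groups, BxPC-3 untreated, BxPC-3 with PMA, AsPC-1 untreated and AsPC-1 with PMA, hold 3 arrays each, 1 from each of 3 cell passages (passages 7, 9 and 11 of BxPC-3 and 8, 10 and 12 of AsPC-1). PMA activates protein kinase C, and the series describes it as an inducer of invasion.

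Cells make cholesterol from acetyl-CoA through the mevalonate pathway, squalene and lanosterol. The transcription factors SREBP-2 and SREBP-1, encoded by SREBF2 and SREBF1, switch the genes of these steps on when sterols in the endoplasmic reticulum run low. SCAP carries the SREBP precursors to the Golgi, where the site-1 and site-2 proteases (MBTPS1 and MBTPS2) release the active factor, and the INSIG proteins hold SCAP back when sterols are plentiful. INSIG1 is itself a target of the SREBPs, and so are HMGCS1, IDI1, SQLE and LSS.

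The promoters of 3 genes with every PMA array below every untreated array in BxPC-3 (HMGCS1, INSIG1 and IDI1, none of which passed the test on all 12 arrays) and of SREBF2, with every PMA array above, are shown so that their motifs can be read beside the values. Each is the 250 bases before a RefSeq transcription start (GRCh38.p14), 5′ to 3′ on the gene's strand, and capitals mark a match to 1 of the 4 motifs named after them. They are chr5:43313413-43313662 (HMGCS1, minus strand), chr7:155297628-155297877 (INSIG1, plus strand), chr10:1049120-1049369 (IDI1, minus strand) and chr22:41832855-41833104 (SREBF2, plus strand). Where a gene has several starts in the table, the start farthest upstream is shown for HMGCS1, and the middle one of 3 for IDI1.
HMGCS1: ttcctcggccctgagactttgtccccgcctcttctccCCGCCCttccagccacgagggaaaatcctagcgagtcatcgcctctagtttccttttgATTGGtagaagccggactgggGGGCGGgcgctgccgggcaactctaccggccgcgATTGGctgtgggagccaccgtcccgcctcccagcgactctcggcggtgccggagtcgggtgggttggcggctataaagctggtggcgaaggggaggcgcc
INSIG1: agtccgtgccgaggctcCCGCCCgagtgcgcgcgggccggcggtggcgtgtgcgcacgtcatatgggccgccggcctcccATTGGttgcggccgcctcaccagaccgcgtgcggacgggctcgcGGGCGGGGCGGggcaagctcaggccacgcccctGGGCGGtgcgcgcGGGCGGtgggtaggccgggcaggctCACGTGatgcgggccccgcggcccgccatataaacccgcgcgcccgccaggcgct
IDI1: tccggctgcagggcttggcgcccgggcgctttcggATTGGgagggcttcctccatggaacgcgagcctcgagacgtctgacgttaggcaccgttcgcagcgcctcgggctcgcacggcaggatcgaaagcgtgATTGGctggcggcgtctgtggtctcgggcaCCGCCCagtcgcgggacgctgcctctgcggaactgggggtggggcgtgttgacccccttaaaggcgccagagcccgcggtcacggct
SREBF2: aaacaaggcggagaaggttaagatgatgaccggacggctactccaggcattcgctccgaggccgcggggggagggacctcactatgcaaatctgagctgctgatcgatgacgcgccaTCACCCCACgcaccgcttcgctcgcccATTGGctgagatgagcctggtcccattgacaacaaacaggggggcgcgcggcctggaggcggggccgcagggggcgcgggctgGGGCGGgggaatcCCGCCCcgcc

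The motifs searched on both strands were the sterol regulatory element TCACNCCAC, which SREBPs bind, the CCAAT box CCAAT, which NF-Y binds, the GC box GGGCGG, which Sp1 binds, and the E-box CACGTG. Of the 8 genes, 6 had in the RefSeq data a window of 300 bases (the stretch above plus 50 bases after the start), 9 windows in all. The sterol regulatory element was found in 1 of the 9, that of SREBF2, where it reads TCACCCCAC and starts 133 bases before the transcription start. It was found in 1.13% of all 35116 windows of that length. A CCAAT box was found in 6 of the 9 windows (34.6% of all windows), a GC box in 9 of 9 (45% of all) and an E-box in 2 of 9 (7.26% of all). In INSIG1, 2 GC boxes overlap each other. These matches are letters in a window and were not tested as binding sites.

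One pair of arrays bears on most values that follow. Across genes, the AsPC-1 PMA array of passage 8 was closer to the untreated array of passage 8 (r = 0.964) than to the other AsPC-1 PMA arrays (r = 0.921). Both passage 8 arrays were also low for several sterol genes, so calls for PMA are given with and without that pair. The choice to leave it out was made after its values were seen. The GAPDH control probe sets gave 3' to 5' ratios between 0.987 and 1.12 on all 12 arrays. SMAD4, a gene BxPC-3 is known to have lost, had signals of 0.104 to 4.6 on the BxPC-3 arrays and 111.4 to 214.4 on the AsPC-1 arrays. Epithelial marker genes (5 of 5 tested) summed to between 13570 and 29320 on every array. In BxPC-3 these sums moved with treatment, from 13570 to 16090 untreated to 17610 to 18510 after PMA. KRT8 (0.49, 0.48 and 0.40 on the log2 scale), KRT18 (0.58, 0.38 and 0.37) and CDH1 (0.53, 0.17 and 0.49) were higher with PMA in passages 7, 9 and 11. KRT19 (0.21, -0.14 and 0.33) and EPCAM (0.41, -0.25 and 0.48) were higher in passages 7 and 11 but lower in passage 9. The part of these marker changes in the BxPC-3 results was not tested.

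HMGCS1 encodes the cytosolic HMG-CoA synthase, which feeds the mevalonate pathway. Its signals in BxPC-3 were 2125, 1994 and 2540 without PMA and 1008, 1241 and 1155 with it (passages 7, 9 and 11). Every PMA array was lower than every untreated one. In AsPC-1 they were 145.1, 1160 and 1085 untreated and 93.7, 2229 and 1781 after PMA (passages 8, 10 and 12). Passage 8 was far below the other passages in both treatments, and in the other 2 passages the PMA arrays were the higher ones. By mean signal the order was BxPC-3 untreated (2220 ± 284.7, SD, n = 3), AsPC-1 with PMA (1368 ± 1126), BxPC-3 with PMA (1135 ± 117.4) and AsPC-1 untreated (796.7 ± 565.6), and each neighbouring pair in that order overlapped. A second, dimmer probe set of HMGCS1 was also lower with PMA in every BxPC-3 passage and higher in AsPC-1 passages 10 and 12, but without PMA it read 57.9, 59 and 91.53 in AsPC-1, so on it the untreated passage 8 array hardly stood apart.

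INSIG1 encodes a sterol-sensing protein that retains SCAP in the endoplasmic reticulum. In BxPC-3 its signals were 1952, 1956 and 2396 without PMA and 886.4, 1225 and 989.2 with it. The groups did not overlap, with PMA lower. In AsPC-1 they were 183.5, 587.1 and 858.6 untreated and 126.8, 1757 and 1922 after PMA. Passage 8 was again the lowest in both treatments, and passages 10 and 12 were higher with PMA than without. Its other 2 probe sets showed the same split: every BxPC-3 passage was lower with PMA (differences of -1.87 to -0.36 on the log2(signal + 3) scale), and AsPC-1 passages 10 and 12 were higher (0.80 to 1.29).

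SQLE encodes squalene epoxidase, which makes the first oxygenated intermediate of sterol synthesis. It gave 1684, 2060 and 2515 in untreated BxPC-3 and 968.4, 1149 and 858.2 with PMA, again with every PMA array below every untreated one. In AsPC-1 they were 220.9, 1121 and 1147 untreated and 367.9, 535.5 and 429.1 after PMA. Here passage 8 was far below the others only without PMA, though it was the lowest after PMA as well. Passages 10 and 12 were lower with PMA, unlike HMGCS1 and INSIG1 in the same cells. All 3 other SQLE probe sets were lower with PMA in each BxPC-3 passage and in AsPC-1 passages 10 and 12.

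IDI1 encodes isopentenyl-diphosphate isomerase, which balances the 2 building blocks of isoprenoids. In BxPC-3 it read 1659, 2232 and 2262 untreated and 1166, 1372 and 1256 after PMA, without overlap. In AsPC-1 it read 380.3, 1949 and 2001 untreated and 417.7, 2134 and 1916 after PMA. The 2 treatments were close within each AsPC-1 passage, and passage 8 lay far below the others. The 3 leading probe sets of IDI1 carry the mark x, so related transcripts can add to them, and the third of these (signals of 18.4 to 66.61) was higher with PMA in each BxPC-3 passage.

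LSS encodes lanosterol synthase, which closes squalene epoxide into the first sterol. Its signals were 175.1, 287.5 and 287.1 in untreated BxPC-3 and 270.2, 160 and 194.4 after PMA. Those groups overlapped. In AsPC-1 they were 180.4, 138.3 and 155.5 untreated and 190, 129.4 and 169.2 after PMA, also overlapping, and passage 8 was the highest of each AsPC-1 group. LSS was the enzyme among these with the smallest spread over the 12 arrays (SD 0.38 on the log2 scale, against 0.89 to 1.51 for the other 3 enzymes and INSIG1). Its other 2 probe sets were dim (signals of 0.83 to 26.18), and neither had 1 sign over the passages of either line.

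SREBF1 encodes SREBP-1, known mainly as a driver of fatty acid synthesis. Its signals were 175.6, 251.8 and 278.9 in untreated BxPC-3 and 165.3, 205.4 and 155 after PMA, with overlap. AsPC-1 read lower throughout, with 80.49, 64.11 and 74.33 untreated and 56.94, 82.8 and 47.27 after PMA. No AsPC-1 array reached the lowest BxPC-3 array. Its only other probe set was dim (signals of 0.935 to 10.83) and changed by -0.049, 0.11 and 0.50 with PMA in BxPC-3 passages 7, 9 and 11, where the main one changed by -0.086, -0.29 and -0.83.

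SREBF2 encodes SREBP-2, the main regulator of sterol synthesis and uptake. In BxPC-3 it read 119, 114.6 and 92.56 untreated and 139.3, 191.3 and 154.7 after PMA, so every PMA array was the higher. In AsPC-1 it read 79.57, 115.5 and 96.07 untreated and 57.72, 108.4 and 122.8 after PMA, which overlapped. Its second probe set did not share the BxPC-3 pattern: it read 71.72, 71.77 and 86.99 untreated and 72.58, 71.67 and 72.6 after PMA. The third (signals of 4.184 to 39.6) changed by -1.58, 0.32 and 0.54 in BxPC-3 passages 7, 9 and 11. The direction of SREBF2 in BxPC-3 therefore rests on 1 probe set.

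**Figure D1:**
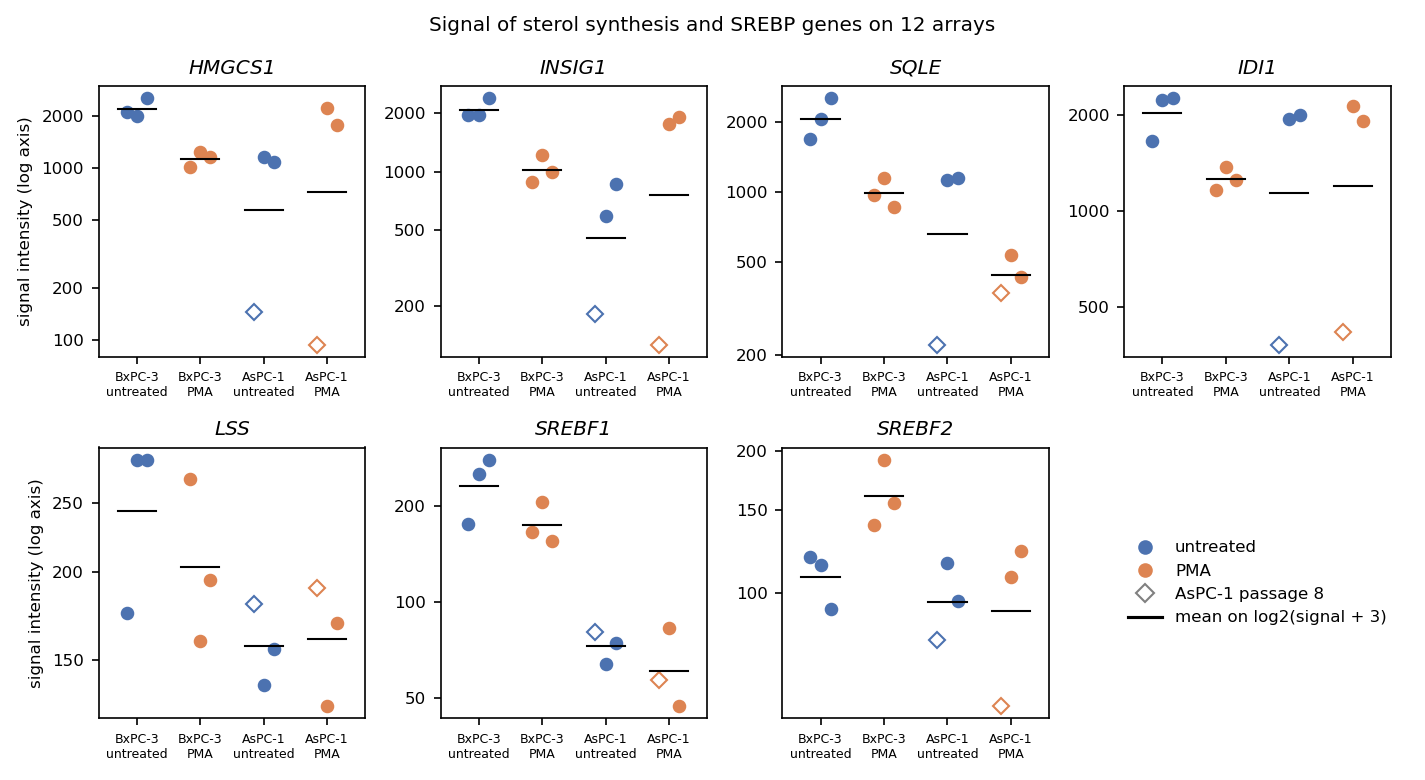
Signal intensity (log axis, a separate scale in each panel) of the 7 measured genes on the 12 arrays, by line and treatment, with open diamonds for the AsPC-1 arrays of passage 8 and bars for group means on the log2(signal + 3) scale. For HMGCS1, INSIG1 and IDI1 both diamonds lie far below the other AsPC-1 arrays, and in BxPC-3 the PMA arrays of HMGCS1, INSIG1, SQLE and IDI1 lie below all untreated arrays.

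The series asked how PMA changes expression in each line. In BxPC-3, 4 of the 7 genes (HMGCS1, INSIG1, SQLE and IDI1) had all PMA arrays below all untreated arrays, as had 22% of all genes tested. SREBF2 was the 1 gene with all PMA arrays above, as had 17% of all genes. None of the 7 passed the test over all 12 arrays (limma on log2(signal + 3), Benjamini-Hochberg adjusted p under 0.05 over all genes tested, which 6.01% of genes passed). An unadjusted p under 0.05 was found for 1 of the 7, SQLE, and for 3381 of all 16110 genes. Signal from fewer cells and less RNA per cell cannot be told apart in such bulk samples.

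The log2 differences behind these calls were large beside their adjusted p-values. SQLE differed by -1.06 ± 0.47 (SE, adjusted p = 0.211), INSIG1 by -1.03 ± 0.80 (adjusted p = 0.521), HMGCS1 by -0.96 ± 0.97 (adjusted p = 0.637) and IDI1 by -0.69 ± 0.62 (adjusted p = 0.587). SREBF2 differed by 0.56 ± 0.28 (adjusted p = 0.275), SREBF1 by -0.40 ± 0.25 (adjusted p = 0.396) and LSS by -0.26 ± 0.26 (adjusted p = 0.633). The errors hold the spread of all 4 groups, and that spread includes the distance of AsPC-1 passage 8 from the other AsPC-1 arrays.

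Treated and untreated arrays of a line share a passage, and a fit with passage as a replicate block compares them within it. With that block HMGCS1 (adjusted p = 0.0325) and IDI1 (adjusted p = 0.00725) passed in limma as lower in BxPC-3, 2 of 7 genes against 6.19% of all genes. INSIG1 (adjusted p = 0.062) and SQLE (adjusted p = 0.0655) did not. Fitted on the 6 BxPC-3 arrays alone, 4 of 7 genes passed as lower (13.6% of all genes) and 1 as higher (8.55% of all genes). Without both AsPC-1 passage 8 arrays the same counts held, 4 lower (14.8% of all genes) and 1 higher (9.46% of all genes), with limma adjusted p = 6.75e-05 for HMGCS1, 0.000233 for INSIG1, 0.00016 for SQLE, 0.000846 for IDI1 and 0.0234 for SREBF2. With the passage block SREBF2 did not pass, either without that pair (adjusted p = 0.0508) or on all 12 arrays (adjusted p = 0.145). Without the untreated array of passage 8 alone, SQLE passed (adjusted p = 0.00514), where 1239 of all 15958 genes passed in either direction.

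Within passages HMGCS1, INSIG1, SQLE, IDI1 and SREBF1 were lower with PMA in each BxPC-3 passage and SREBF2 was higher (0.22, 0.72 and 0.72). LSS was mixed (0.62, -0.83 and -0.56). SREBF1 changed by only -0.086 in passage 7, and its other probe set was mixed. The share of all genes with 1 sign over the 3 passages was not counted. HMGCS1 changed by -1.07, -0.68 and -1.14 (log2, passages 7, 9 and 11), INSIG1 by -1.14, -0.67 and -1.27, SQLE by -0.80, -0.84 and -1.55 and IDI1 by -0.51, -0.70 and -0.85. The ACTB control probe sets, a measure of RNA quality, moved with treatment in this line. Their 3' to 5' ratio was 2.56, 2.95 and 4.14 on the untreated BxPC-3 arrays and 1.84, 1.99 and 2.02 on the PMA arrays, and its part in the lower signals was not tested.

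**Figure D2:**
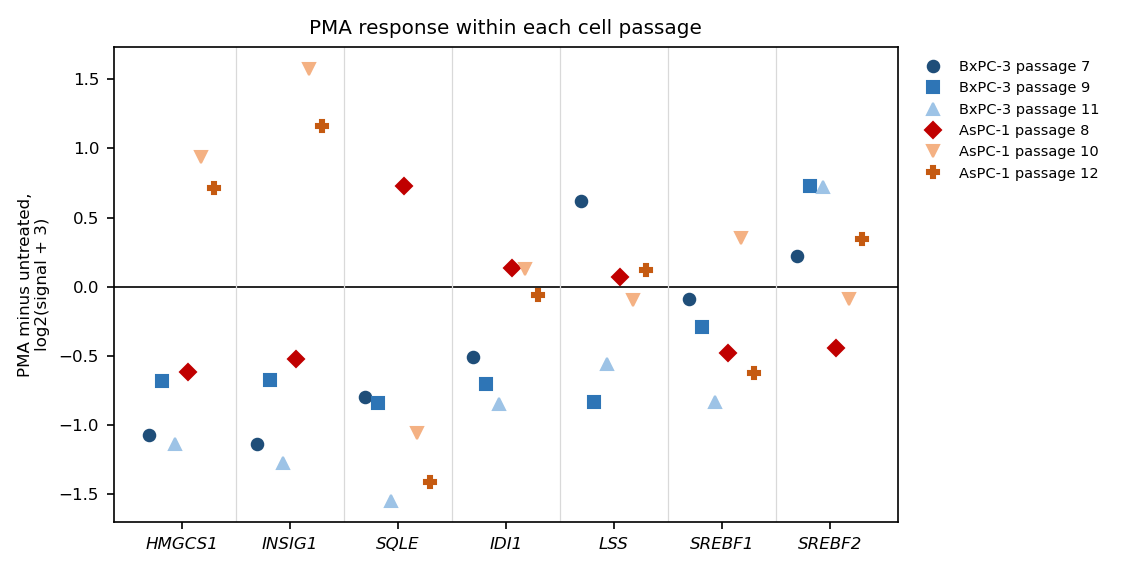
PMA minus untreated within each passage, on the log2(signal + 3) scale, for the 7 genes, 3 passages of BxPC-3 (blue) and 3 of AsPC-1 (red and orange). HMGCS1 and INSIG1 lie below 0 in all BxPC-3 passages and in AsPC-1 passage 8, and above 0 in AsPC-1 passages 10 and 12.

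In AsPC-1, PMA gave no call on all 12 arrays: 0 of 7 genes passed, where 1.94% of all genes did. An unadjusted p under 0.05 was found for 0 of the 7 and for 2675 of all 16110 genes. The AsPC-1 groups overlapped for all 7 (14.5% of all genes had no overlap). INSIG1 differed by 0.74 ± 0.80 (limma adjusted p = 0.71), SQLE by -0.58 ± 0.47 (adjusted p = 0.584) and HMGCS1 by 0.35 ± 0.97 (adjusted p = 0.902). Differences of IDI1, LSS, SREBF1 and SREBF2 lay between -0.25 and 0.07. Passage as a replicate block called none of the 7, and on the AsPC-1 arrays alone 0 of all 16110 genes passed.

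The passages of AsPC-1 did not share a response. With PMA, INSIG1 changed by 1.58 and 1.16 in passages 10 and 12 and by -0.52 in passage 8, and HMGCS1 by 0.94, 0.71 and -0.62 in the same order. SQLE had the reverse signs, with -1.06, -1.41 and 0.73. IDI1 changed by 0.13, -0.06 and 0.13. Without both passage 8 arrays, limma called HMGCS1 (0.83 ± 0.15, adjusted p = 0.000952) and INSIG1 (1.37 ± 0.18, adjusted p = 0.00011) higher and SQLE (-1.24 ± 0.18, adjusted p = 0.000209) lower. These are 3 of 7 genes where 22% of all genes passed in either direction, and they rest on 2 passages. IDI1 then differed by 0.03 ± 0.14 (adjusted p = 0.913). Without the PMA array of passage 8 alone, INSIG1 passed (2.01 ± 0.44, adjusted p = 0.0049), and without the untreated one alone, SQLE did (-1.36 ± 0.20, adjusted p = 0.0082). Over all genes 3172 of 15929 and 304 of 15958 passed in these fits, in that order. Each fit keeps 1 passage 8 array without its partner, so its PMA difference also holds the distance of that passage.

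Passage 8 stood apart for some of the sterol genes. In untreated AsPC-1, 4 of the 7 genes were over 2-fold below both other passages (4.44% of all genes), and after PMA 3 were (8.06%). HMGCS1, INSIG1 and IDI1 were so in both treatments, as were 1.68% of all genes. The untreated passage 8 array differed from the mean of the other 2 by -2.92 for HMGCS1, -2.37 for IDI1, -2.34 for SQLE and -1.94 for INSIG1 on the log2 scale. LSS and SREBF1 were higher there, by 0.29 and 0.21. The median over the 7 genes was -1.94 untreated and -0.96 with PMA, against 0.08 and 0.14 over all genes tested. Among the other sterol synthesis enzymes 7 of 14 were over 2-fold down untreated and 3 of 14 after PMA, and among the 6 tested genes that process SREBPs or sense sterols 0 were in either treatment. Of 4 tested sterol uptake and transport genes 2 were in each treatment. Of 9 tested fatty acid synthesis genes 3 were untreated and 2 after PMA, and of 7 oxysterol sensing and efflux genes 0 and 1. The sterol carrier STARD4, named after its values were seen, read 41.25 in passage 8 against 456.9 and 692.2 in the others. One culture per passage was measured in each treatment, and why passage 8 differed was not tested.

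**Figure D3:**
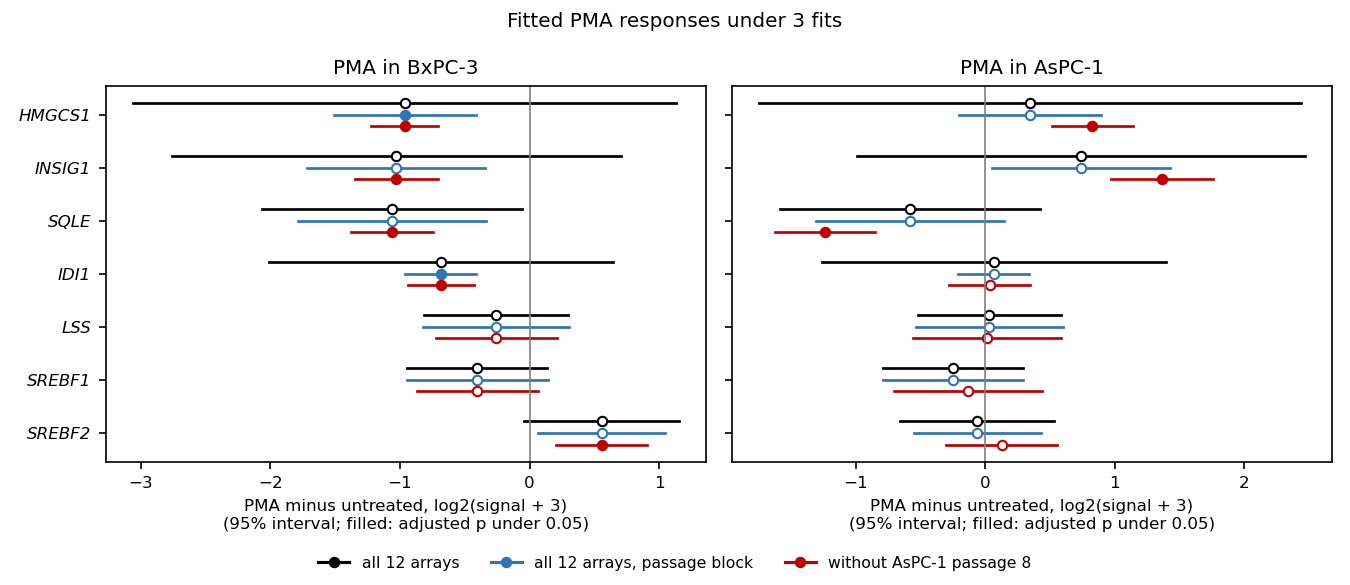
PMA minus untreated (log2(signal + 3), with 95% intervals) for the 7 genes in each line, fitted on all 12 arrays, with passage as a block, and without both AsPC-1 passage 8 arrays; filled points passed at an adjusted p under 0.05. The BxPC-3 estimates are the same in the 3 fits and only their intervals differ, while those of HMGCS1, INSIG1 and SQLE in AsPC-1 move away from 0 when passage 8 is left out.

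The lines were also compared in their responses directly, by the difference of the PMA responses (BxPC-3 minus AsPC-1). On all 12 arrays 0 of 7 genes passed and 0 had an unadjusted p under 0.05 (0.497% of all genes passed, and 1451 of 16110 had such a p). INSIG1 had the largest difference, -1.77 ± 1.14 (limma adjusted p = 0.71), then HMGCS1 with -1.31 ± 1.38 (adjusted p = 0.861). Without the PMA array of passage 8, INSIG1 passed (-3.04 ± 0.58, adjusted p = 0.0107), where 732 of all 15929 genes did. The untreated passage 8 array then has no partner, so this difference also holds the distance of that passage. Without both passage 8 arrays 3 genes passed as lower in BxPC-3, where 3.39% of all genes did: INSIG1 (-2.40 ± 0.24, adjusted p = 5.11e-05), HMGCS1 (-1.79 ± 0.19, adjusted p = 8e-05) and IDI1 (-0.72 ± 0.19, adjusted p = 0.0323). SQLE then differed by 0.18 ± 0.23 (adjusted p = 0.726), with a lower signal after PMA in both lines. The replicate block called none of the 7 on all 12 arrays.

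Between the untreated lines, SREBF1 and SQLE were higher in BxPC-3, 2 of 7 genes, where 32.7% of all genes passed in either direction. SREBF1 was higher by 1.63 ± 0.25 (limma adjusted p = 0.0002) and SQLE by 1.64 ± 0.47 (adjusted p = 0.0152), and without the third untreated BxPC-3 array SQLE did not pass (1.50, adjusted p = 0.0606). INSIG1 was 2.20 ± 0.80 apart and missed the threshold (adjusted p = 0.0506). HMGCS1 did not pass (1.95 ± 0.97, adjusted p = 0.146), though on its second probe set it did (3.52 ± 0.56, adjusted p = 0.000282). All BxPC-3 arrays were above all AsPC-1 arrays for 4 genes, HMGCS1, INSIG1, SQLE and SREBF1, as for 25.2% of all genes. Without passage 8, 5 genes passed as higher in BxPC-3 (24.7% of all genes): HMGCS1, INSIG1, SQLE, LSS and SREBF1. The difference of HMGCS1 shrank to 0.97 ± 0.13 and that of SQLE to 0.86 ± 0.16, since the AsPC-1 mean then no longer held its lowest array.

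After PMA, SREBF1 (1.47 ± 0.25, limma adjusted p = 0.000447) and SREBF2 (0.79 ± 0.28, adjusted p = 0.0425) passed as higher in BxPC-3, 2 of 7 genes where 33.7% of all genes passed. SREBF2 did not hold: on its second probe set it differed by -0.09, and it missed the threshold without filtering, under median centring or quantile normalization, and without any 1 of 8 of the 12 arrays. SQLE missed the threshold on all 12 arrays (1.16 ± 0.47, limma adjusted p = 0.0724). On the arrays of the comparison alone SQLE passed (adjusted p = 0.00344) and SREBF2 did not (adjusted p = 0.106). SQLE also passed on its second probe set (adjusted p = 0.024) and without passage 8 (adjusted p = 0.000128). HMGCS1 differed by 0.64 ± 0.97 (adjusted p = 0.668) on its main probe set and by 1.70 ± 0.56 (adjusted p = 0.0333) on its second. All BxPC-3 arrays were above all AsPC-1 arrays for 3 genes, SQLE, SREBF1 and SREBF2, as for 23% of all genes. Without passage 8 the direction of 3 genes turned: HMGCS1 (-0.82 ± 0.13, adjusted p = 0.00016), INSIG1 (-0.84 ± 0.17, adjusted p = 0.000814) and IDI1 (-0.68 ± 0.13, adjusted p = 0.000705) were then lower in BxPC-3, and 6 of 7 genes passed in either direction (48.7% of all genes). The 2 lines also differ in other marker genes. Fibroblast markers (5 of 5 tested) summed to 1318 to 3422 in AsPC-1 and 198.5 to 289.1 in BxPC-3, and leukocyte markers (4 of 5 measured) to 1951 to 2756 and 26.72 to 43.98. In AsPC-1 those sums are nearly all LUM (1261 to 3396) and LYZ (1896 to 2666). There the defining PTPRC stayed at or below 14.79 over its 5 probe sets and COL1A1 at or below 39.63 over its 5. In BxPC-3 COL1A1 (77.38 to 157.8) and COL3A1 (39.2 to 57.7) were higher than in AsPC-1 on their brightest probe sets (at most 8.546 and 11.18 there). The part of these markers in the line differences was not tested.

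The other genes of the pathway were read from lists chosen with earlier results of these data known. Of 14 tested other sterol synthesis enzymes (17 listed), 1 fell after PMA in BxPC-3, where 3.4% of all genes did. This was NSDHL, which removes a methyl group from sterol intermediates. It read 650.2, 583.3 and 819.7 untreated and 175.2, 216.3 and 215.2 after PMA, a change of -1.74 ± 0.34 (limma adjusted p = 0.0097), with no overlap. Without the third untreated BxPC-3 array it missed the threshold (-1.60, adjusted p = 0.0597). In all, 12 of the 14 had a negative difference, as had 8067 of all 16110 genes. Their median was -0.68 where the median of all genes was -0.00085. With passage as a block 7 of the 14 fell (6.19% of all genes), as many as with the BxPC-3 arrays alone (13.6% of all genes) or without passage 8 (14.8% of all genes), among them the sterol oxidase MSMO1 (-1.56, adjusted p = 0.00382 with the block) and the last-step reductase DHCR7 (-1.04, adjusted p = 0.00873), both named after their values were seen.

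In AsPC-1 0 of these 14 enzymes passed on all 12 arrays, where 1.94% of all genes did. At an unadjusted p under 0.05 (limma) there were 2 of the 14, and 2675 of all 16110 genes. A negative difference was found for 13 of the 14 (median -0.21) and for 9520 of all genes (median -0.10). NSDHL differed by -0.85 ± 0.34 (limma adjusted p = 0.22), and by -1.27 ± 0.19 without passage 8 (adjusted p = 0.000297), when 5 of 14 passed, all lower, and 22% of all genes passed in either direction. In passages 10 and 12 SQLE, NSDHL and MSMO1 were lower with PMA while HMGCS1 and INSIG1 were higher. ACAT2, an enzyme of the step before HMGCS1, was lower in both passages (-0.33 and -0.60), as was FDPS, which acts after IDI1 (-0.29 and -0.52), both named after their values were seen. Of the same 14 enzymes EBP was higher in both passages (0.14 and 0.10), and MVK, PMVK, MVD and TM7SF2 had mixed signs. These too are named after their values were seen, and the share of all genes lower in both passages was not counted.

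**Figure D4:**
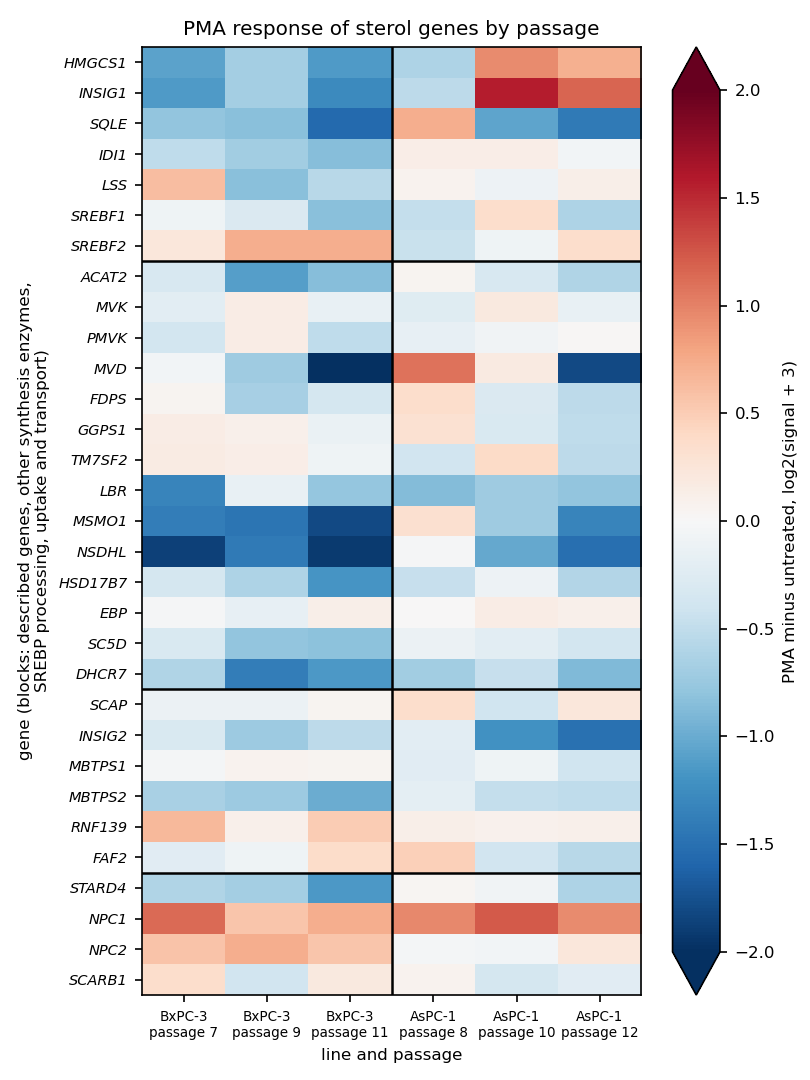
PMA minus untreated within each passage (colour, log2(signal + 3), scale ending at -2 and 2) for the 7 genes and 24 tested genes of 3 further lists. NSDHL and MSMO1 are lower with PMA in every BxPC-3 passage, and NPC1 is higher in all 6 passages.

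Of 6 tested genes that process SREBPs or sense sterols, 1 fell in BxPC-3 (3.4% of all genes), and without passage 8 2 fell and 1 rose (14.8% and 9.46% of all genes). This was MBTPS2, the site-2 protease that frees the active SREBP, with 403.4, 388.1 and 518 untreated and 256.1, 234.6 and 258.8 after PMA, a change of -0.79 ± 0.16 (limma adjusted p = 0.0122). On the mean of its probe sets it did not pass (-0.19, adjusted p = 0.722), nor without the third untreated (adjusted p = 0.0805) or the second PMA array of BxPC-3 (adjusted p = 0.0528). INSIG2, the second INSIG, read 611.4, 674.8 and 734.5 in untreated AsPC-1 and 529.9, 290 and 258.9 after PMA, without overlap. Its change there was -0.97 ± 0.24 (adjusted p = 0.0626, and 0.0376 with passage as a block), and -1.35 ± 0.16 without passage 8 (adjusted p = 4.68e-05). On the AsPC-1 arrays alone INSIG2 did not pass (limma adjusted p = 0.399), and 0 of all 16110 genes did. INSIG2 thus differed from INSIG1 in its direction in passages 10 and 12. In BxPC-3 its PMA arrays also lay below all untreated ones. The difference there, -0.52 ± 0.24, did not pass on all 12 arrays (limma adjusted p = 0.244) or with the block (0.191), but passed on the BxPC-3 arrays alone (0.0292) and without passage 8 (0.0117, and 0.0236 with the block too). Between untreated lines INSIG2 was lower in BxPC-3, with a difference of -1.25 ± 0.24 (adjusted p = 0.0013 in limma). SCAP differed by -0.06 ± 0.25 in BxPC-3 (adjusted p = 0.928) and by 0.06 ± 0.25 in AsPC-1 (adjusted p = 0.93).

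Of 4 tested sterol uptake and transport genes 1 rose in BxPC-3 (2.61% of all genes), NPC2, which moves cholesterol out of lysosomes. It read 1864, 2114 and 1870 untreated and 2756, 3492 and 2751 after PMA, a rise of 0.61 ± 0.15 (limma adjusted p = 0.031), and it was lost without any 1 of the 6 BxPC-3 arrays (adjusted p = 0.0611 to 0.133). Its partner NPC1, named after its values were seen, was higher in BxPC-3 (0.81, adjusted p = 0.00741) and AsPC-1 (1.04, adjusted p = 0.00347) with passage as a block. Without passage 8, 2 of the 4 rose in BxPC-3 (9.46% of all genes) and 1 fell (14.8% of all genes). Among 9 tested fatty acid synthesis genes 1 fell in BxPC-3 (3.4% of all genes), and 3 did without passage 8 (14.8% of all genes). The 1 called on all 12 arrays was GPAM, an acyltransferase of glycerolipid synthesis. It read 201.1, 193.1 and 173.1 untreated and 110.5, 65 and 80.67 after PMA, a change of -1.15 ± 0.31 (adjusted p = 0.0434), and it was lost without filtering, under both other scalings, and without any 1 of 8 arrays (each BxPC-3 array and the AsPC-1 untreated arrays of passages 10 and 12). Of 7 tested oxysterol sensing and efflux genes 0 passed in BxPC-3 (limma, 6.01% of all genes). At an unadjusted p under 0.05 there were also 0, and 3381 of all 16110 genes. In AsPC-1 0 genes of the SREBP processing, uptake, fatty acid and oxysterol lists passed in limma on all 12 arrays, where 1.94% of all genes did. At an unadjusted p under 0.05 there were 2, 1, 1 and 0, and 2675 of all 16110 genes. With passage as a block 1 processing gene (INSIG2) and 1 uptake gene (NPC1) passed there, where 5.58% of all genes did. Without passage 8 the counts were 3 of 6, 1 of 4, 1 of 9 and 1 of 7, where 22% of all genes passed. These were INSIG2, MBTPS2 (-0.49, adjusted p = 0.0281) and FAF2 (-0.47, adjusted p = 0.0426), NPC1 (1.09, adjusted p = 7.64e-05), GPAM (-1.38, adjusted p = 0.000649) and MYLIP, a ubiquitin ligase (1.50, adjusted p = 0.000173), and they rest on 2 passages. FAF2 and MYLIP are named after their values were seen.

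Over the 12 arrays HMGCS1 and INSIG1 had the most similar profiles of any 2 of the 7 genes. Their log2 values, centred on each gene's mean, differed by a root mean square of 0.34, less than the distance of either from any gene outside the lists. The nearest of those were ERAP1 (0.57) and ATXN7 (0.62) for HMGCS1 and ERAP1 (0.52) and EPPK1 (0.55) for INSIG1. SQLE was nearest to ZNF155 (0.31) and H2BC4 (0.38), IDI1 to SLC2A1 (0.30) and UNC5B (0.30), and LSS to TOR1A (0.17) and KAT8 (0.18). SREBF1 was nearest to STXBP5 (0.22) and SYMPK (0.22), and SREBF2 to WDR45B (0.15) and TCF20 (0.16). These distances describe the same 12 arrays, passage 8 included.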

How the data were processed

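The values deposited by the authors are linear signal intensities of 54675 probe sets on 12 arrays, made with MAS5 per the submitters' processing notes (version not given in the sources used here). Each array has the same trimmed mean (2% of probe sets off each end), so no further scaling was applied. No detection calls or scanner files were used, so a dim signal was not set against background, and the number of arrays limits the precision. Control probe sets (62) were left out. The annotation gave 41091 probe sets 1 symbol, 1801 several and 11721 none, and only the first were named. Of these, 41037 matched the GRCh38.p14 gene table by Entrez ID, and 0 symbols changed.

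Signals were turned into log2(signal + 3), which understates changes of dim genes. Genes above the 40th percentile of their array on at least 3 arrays were tested, 1 probe set each. The model, run in limma 3.58.1 (R 4.3.3), gave each of the 4 groups its mean and used every array (eBayes with trend, 8 residual degrees of freedom, two-sided, Benjamini-Hochberg over all genes tested, threshold 0.05). Each p-value measures a difference against the passage-to-passage spread, pooled over the 4 groups. The labels give treated and untreated arrays of a line the same passages, so passage pairs them. Across genes, the deviations of 2 paired arrays from their group means had r = 0.416, 0.208 and 0.16 for the AsPC-1 passages, and r = -0.0543, -0.129 and -0.0578 for those of BxPC-3. Arrays of different lines share a replicate number and nothing else.

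Alternatives were other pseudocounts, filters, scalings and probe set choices, eBayes without trend, the arrays of a comparison alone, a replicate block and leaving out each array. Leaving out both AsPC-1 passage 8 arrays was chosen after seeing the data. The described genes and all lists were chosen with earlier results of these data known. Named genes are the 8 genes, up to 4 called genes of each other list and PMA comparison, INSIG2, SCAP, and for each of the 8 the 2 genes of nearest profile; other genes that the rule names are not reported here. Sequences come from RefSeq (GRCh38.p14). The fit was tested on simulated data. Plots come from matplotlib 3.10.9 under Python 3.11.15.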

Additional observations from a re-analysis of the deposited data

How the results depend on the processing

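The counts of called genes among the 7 depended most on the arrays in the fit. PMA in BxPC-3 gave 0 on all 12 arrays, 5 with the arrays of the comparison alone, 2 with the replicate block, 5 without both AsPC-1 passage 8 arrays and 4 without that pair and with the block. Calls over all genes moved too, to 968, 3574, 1681, 3822 and 3072 in that order (16110 genes tested, 15732 without the pair). PMA in AsPC-1 gave 0, against 3 without the pair, with or without the block, and the difference of responses also gave 0 against 3. For PMA in AsPC-1 the calls over all genes were 313, against 3459 without the pair and 2815 with the block too. For the difference they were 80, 1210 and 684. With the AsPC-1 arrays alone, PMA in AsPC-1 gave 0 calls among the 7 genes and 0 over all genes. The untreated lines gave 2 (5274 over all genes), against 4 with their own arrays (5937) and 5 without the pair (7210), with or without the block (6653 with it). The lines after PMA gave 2, against 6 without the pair (5 with the block too) and 1 without filtering, under median centring, under quantile normalization, without the eBayes trend and on the mean of all probe sets. Over all genes these were 5434, against 7660 (7145) and 4877 to 5622 in the fits named last. Their own arrays alone also gave 2, but with SQLE in place of SREBF2 (4389 over all genes). Leaving out single arrays gave 0 to 1 for PMA in BxPC-3, 0 to 1 for PMA in AsPC-1, 0 to 1 for the difference, 1 to 5 for the untreated lines and 1 to 3 after PMA. The ranges over all genes were 329 to 2435, 60 to 3172, 9 to 732, 4184 to 6593 and 4343 to 6588, in that order. For the pairing of treated and untreated arrays by passage, the replicate block gave 2 calls for PMA in BxPC-3 (HMGCS1 and IDI1) and on all 12 arrays changed no other PMA call among the 7 genes. Between lines a replicate number pairs nothing. A block on it gave 3 calls between the untreated lines, with INSIG1 added, and 3 after PMA, with SQLE added (5290 and 5445 over all genes).

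Signs turned as follows, mostly for differences near 0. Without the pair, after PMA between the lines and on the main probe sets, HMGCS1 was -0.82 (-0.76 with the block), INSIG1 -0.84 (-0.77) and IDI1 -0.68 (-0.58). Also without it, SQLE was 0.18 in the difference of responses, and in AsPC-1 SREBF2 was 0.13 and SCAP -0.082, each the same with the block. Median centring shifts every difference by 0.136 for PMA in BxPC-3, 0.223 for PMA in AsPC-1 and -0.129 between the lines after PMA. It put SCAP at 0.078 in BxPC-3, SREBF2 at 0.16 in AsPC-1 and IDI1 at -0.052 between the lines after PMA. It gave 523 higher and 442 lower calls over all genes for PMA in BxPC-3 (421 and 547 as deposited), and 220 and 71 in AsPC-1 (195 and 118). Quantile normalization put SCAP at 0.040 in BxPC-3, and IDI1 at -0.056 and SREBF2 at 0.093 in AsPC-1. On the mean of all probe sets, IDI1 was -0.011, LSS -0.026 and SREBF2 0.25 in AsPC-1. IDI1 was -0.25 and SREBF2 -0.15 between the lines after PMA, and SREBF1 was 0.039 and SREBF2 -0.17 in the difference. On the second probe set, SREBF2 was -0.079 for PMA in BxPC-3, -0.035 between the untreated lines, -0.087 after PMA and -0.053 in the difference, and LSS was -0.38 in AsPC-1 and 0.12 in the difference.

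Leaving out single arrays moved values across 0 for PMA in AsPC-1: HMGCS1 from -0.63 to 1.80, IDI1 from -0.72 to 0.82, LSS from -0.085 to 0.19, SREBF2 from -0.27 to 0.26, NPC2 from -0.029 to 0.16 and SCAP from -0.17 to 0.28. It did so for SCAP in BxPC-3 (-0.15 to 0.054). Between the lines after PMA HMGCS1 ranged from -0.82 to 1.45, INSIG1 from -0.84 to 1.10 and IDI1 from -0.68 to 0.49. In the difference of responses IDI1 ranged from -1.51 to 0.036, SQLE from -0.88 to 0.30 and SREBF1 from -0.35 to 0.060. The cause of these changes was not tested. Leaving out AsPC-1 arrays, other filters, eBayes without trend, the BxPC-3 arrays alone and the passage block could not change a PMA difference in BxPC-3. With PMA in BxPC-3 the signs of HMGCS1, INSIG1, SQLE, IDI1 and LSS were the same under every alternative run. That of SREBF1 was the same in every alternative that tested it. Its second probe set did not pass the filter on low signal. It changed by -0.049, 0.11 and 0.50 with PMA in BxPC-3 passages 7, 9 and 11.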
